A study of Mus musculus with 8 samples.

Results

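Pericytes are the mural cells that sit on capillaries and small vessels and share their basement membrane with the endothelium. They are recruited by platelet-derived growth factor from endothelial cells, keep contact with them through Notch and angiopoietin signals, and lie on a spectrum with the smooth muscle cells of larger vessels. In the lung they are among the cells studied when hypoxia remodels small pulmonary arteries. Described here are 8 genes used as pericyte markers (Higd1b, Cspg4, Rgs5, Abcc9, Notch3, Trpc6, Ndufa4l2 and Cox4i2), taken by symbol from a table of 23284 genes. All 8 were found, and all 8 were among the 14008 genes that passed the filter on low values (at least 10 in at least 4 libraries).

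Lungs came from wild-type (WT) mice of the C57BL/6 strain that had received a bone marrow transplant and then spent 3 days in hypoxia. In 4 mice the donor marrow lacked the neuronal, inducible and endothelial nitric oxide synthases (triply n/i/eNOS-/- marrow, called NOS-null marrow), and in 4 mice the donor marrow was WT. The deletion sat in the donor marrow, while the recipients carried intact synthase genes, and how far donor cells had replaced those of the host is not stated in the labels. The labels give no age or sex. The groups were taken from the sample titles, since the series' design sentence names NOS-null marrow for both. All 8 lungs were hypoxic, so nothing below measures a response to hypoxia.

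Values are reads per gene scaled between libraries by the authors (scaled reads), and summed to 7767070 to 8625140 per library with NOS-null marrow and 7862260 to 8235390 with WT marrow. Inducible synthase transcripts (Nos2) lay at 13.3 to 43.5 scaled reads with NOS-null marrow and at 87.4 to 115 with WT marrow. They were lower without overlap, as were 9.29% of all tested genes. Endothelial synthase transcripts (Nos3) overlapped, at 177 to 219 with NOS-null marrow and 171 to 207 with WT marrow. Neuronal synthase transcripts (Nos1) reached at most 1.09 scaled reads in any library. The lung epithelial markers Sftpc, Ager, Scgb1a1 and Foxj1 were present in every library, at 502 scaled reads or more. Along principal component 1 (49.2% of the variance) NOS-null marrow replicates 1 and 2 stood apart at −57.7 and −32.3, replicates 3 and 4 lay at −3.35 and −1.40, and the WT marrow libraries lay between 17.7 and 27.2. In whole lung, fewer pericytes and less of an RNA per pericyte cannot be told apart. The titles name mice but say nothing more of how replicates relate, and the p-values cover only the spread among these 8 samples, which may in part be technical.

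Whole-lung values do not show in which cells the 8 genes were read. None is taken here as a gene of pericytes alone, and several are also read in smooth muscle. Per length, in fragments per kilobase scaled to library depth (FPKM, the authors' values), the order of the levels over all 8 libraries was Cox4i2 at 117.5, Higd1b at 98.1, Ndufa4l2 at 60.0, Trpc6 at 17.8, Rgs5 at 9.70, Notch3 at 8.36, Cspg4 at 5.69 and Abcc9 at 1.79 FPKM. The 3 genes of highest level all encode mitochondrial proteins. Within WT marrow lungs Cox4i2 (108 to 142 FPKM) and Higd1b (108 to 119 FPKM) overlapped, as did Notch3 (5.73 to 9.13 FPKM), Cspg4 (5.24 to 8.59 FPKM) and Rgs5 (4.72 to 6.02 FPKM). Ndufa4l2, Trpc6 and Abcc9 each overlapped no neighbour in that order in WT marrow lungs. The place of Rgs5 above Notch3 came from the NOS-null marrow lungs, where it ran from 5.67 to 27.3 FPKM.

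Of the 8 genes, 1 passed the test between the marrow groups. Higd1b fell with NOS-null marrow, and no member rose past the threshold, a limma adjusted p of 0.05 over all tested genes. Over all 14008 genes 4.05% passed (1.87% of all tested genes higher and 2.18% lower), so 1 of 8 is a count that a single gene decides. The members' log2 changes, NOS-null marrow minus WT marrow after adding 1 and taking log2, had a median of −0.13, against 0.00 for all tested genes, and ran from −0.46 to 1.11. At an unadjusted p under 0.05 there were 3 members lower (Higd1b, Ndufa4l2 and Cox4i2) and 2 higher (Rgs5 and Notch3), where 26.6% of all tested genes lay under it. The 8 genes thus did not share a direction.

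**Figure D1:**
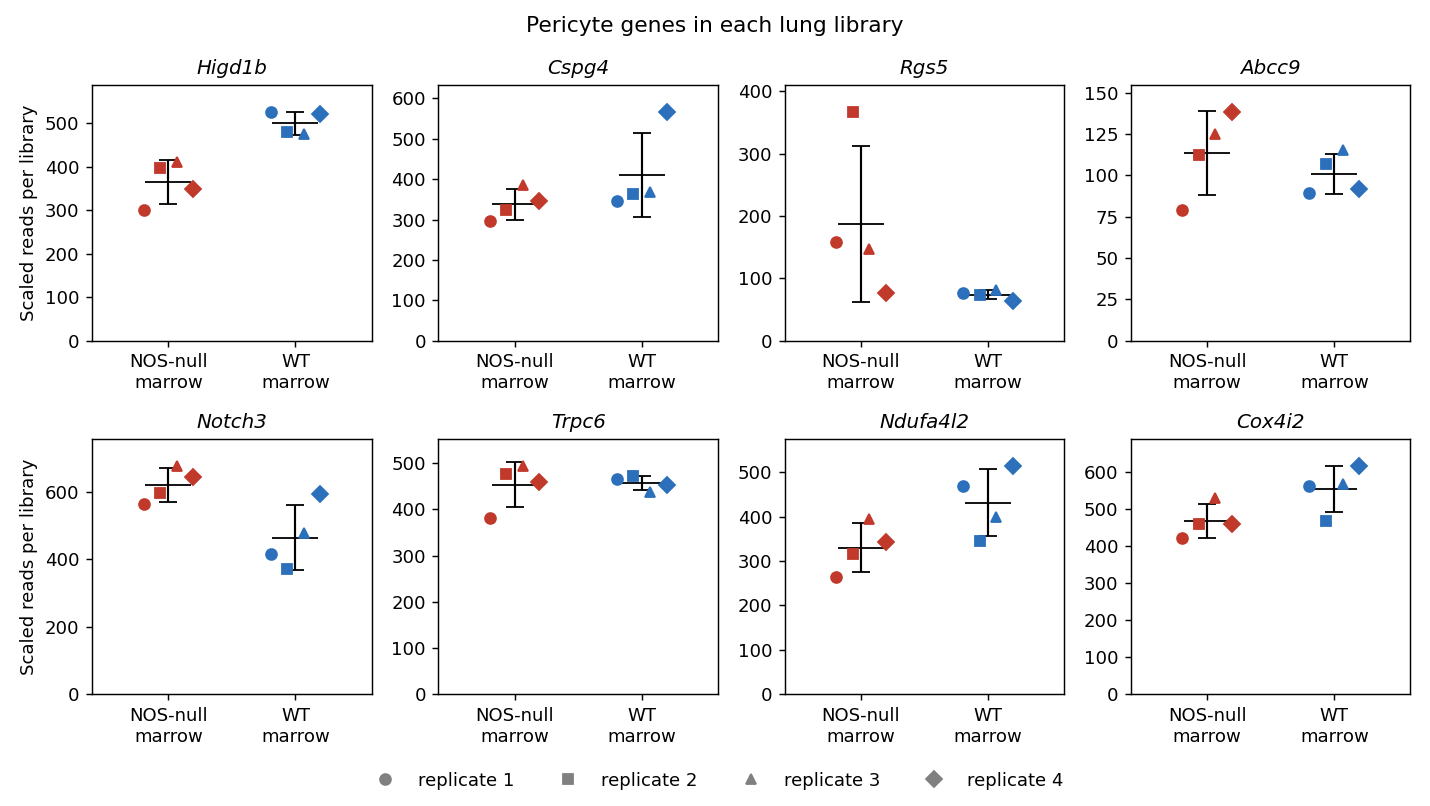
Scaled reads (y axis, from 0) of the 8 pericyte genes in each lung library, NOS-null marrow left and WT marrow right in each panel. Symbols are libraries, and bars give the mean and SD of 4. Higd1b is the gene whose groups do not overlap, at 301 to 411 scaled reads with NOS-null marrow against 475 to 526 with WT marrow, while Rgs5 spreads from 76.1 to 367 with NOS-null marrow.

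Of the 3 genes of mitochondrial proteins, Higd1b fell with NOS-null marrow, and Ndufa4l2 and Cox4i2 did not pass. Higd1b (chromosome 11, 102835849 to 102838040, plus strand, GRCm38, the assembly of mm10) encodes a small inner membrane protein of the HIG1 hypoxia-inducible domain family. Replicates 1 to 4 held 301, 398, 411 and 349 scaled reads with NOS-null marrow, against 526, 481, 475 and 522 with WT marrow. Every NOS-null marrow library lay below every WT marrow library, as in 9.29% of all tested genes (7.82% were higher without overlap, 17.1% in either direction). Means were 365 ± 50.0 with NOS-null marrow, against 501 ± 26.7 with WT marrow (SD, n = 4 each), a log2 change of −0.46 (SE 0.11, 95% interval −0.70 to −0.23, limma adjusted p = 0.0425). The call is narrow. It did not survive leaving out NOS-null marrow replicate 2 or 4, or any 1 of the 4 WT marrow libraries (adjusted p between 0.0568 and 0.131), while the log2 change stayed between −0.53 and −0.38.

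Ndufa4l2 (chromosome 10, 127514967 to 127517154, plus strand) encodes a paralogue of the respiratory chain subunit NDUFA4, is a target of hypoxia-inducible factor 1 and is known for lowering complex I activity under low oxygen. With NOS-null marrow, replicates 1 to 4 had 263, 317, 395 and 344 scaled reads, against 468, 345, 400 and 514 with WT marrow. The groups overlapped, since NOS-null marrow replicate 3 lay above WT marrow replicate 2. Means were 330 ± 55.0 with NOS-null marrow, against 432 ± 74.6 with WT marrow (log2 change −0.39, SE 0.15, interval −0.72 to −0.05, limma adjusted p = 0.140). It shares 32 annotated bases with Shmt2, and whether the counting used strand is not given, so reads there could belong to either gene.

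Cox4i2 (chromosome 2, 152754173 to 152765037, plus strand) encodes the lung isoform of subunit 4 of cytochrome c oxidase, which in mice serves oxygen sensing by pulmonary arterial smooth muscle. Replicates 1 to 4 held 423, 459, 531 and 461 scaled reads with NOS-null marrow, against 563, 468, 569 and 617 with WT marrow. WT marrow replicate 2 lay within the range of the NOS-null marrow lungs. Means were 469 ± 45.2 with NOS-null marrow, against 554 ± 62.3 with WT marrow (log2 change −0.24, SE 0.10, interval −0.47 to −0.01, limma adjusted p = 0.176).

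These 3 genes each have a broadly expressed paralogue, and the stretch where 75-base reads could most easily be taken for the paralogue is printed for each pair. Shown is the 75-base window of the coding sequence with the fewest differences, 5′ to 3′, from GENCODE M21 transcripts (GRCm38), with the bases that differ within a pair in capitals.
Higd1b: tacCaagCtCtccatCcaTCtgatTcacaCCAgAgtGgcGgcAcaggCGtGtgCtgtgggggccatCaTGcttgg
Higd1a: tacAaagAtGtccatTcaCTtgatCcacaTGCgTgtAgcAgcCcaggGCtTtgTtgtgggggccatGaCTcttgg
Ndufa4l2: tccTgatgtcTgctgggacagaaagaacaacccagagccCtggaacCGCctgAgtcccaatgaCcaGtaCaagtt
Ndufa4: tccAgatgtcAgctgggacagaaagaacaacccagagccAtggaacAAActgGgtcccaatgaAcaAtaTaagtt
Cox4i2: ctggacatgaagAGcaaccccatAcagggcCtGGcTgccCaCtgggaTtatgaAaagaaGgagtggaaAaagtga
Cox4i1: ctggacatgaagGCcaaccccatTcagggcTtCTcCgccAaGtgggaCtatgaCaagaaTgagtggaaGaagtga
The window differs at 21 bases between Higd1b and Higd1a, at 10 between Ndufa4l2 and Ndufa4 and at 13 between Cox4i2 and Cox4i1. Over aligned coding bases identity was 57.4%, 66.9% and 67.1% for these pairs in the same order. The longest run of identical coding bases was 12, 28 and 14, in each pair shorter than a read.

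The paralogues did not pass the test. Higd1a averaged 491 ± 45.5 scaled reads with NOS-null marrow, against 558 ± 40.5 with WT marrow (log2 change −0.19, SE 0.09, limma adjusted p = 0.215). Ndufa4, a subunit of cytochrome c oxidase, had a log2 change of −0.08 (SE 0.08, limma adjusted p = 0.545), and Cox4i1, the common isoform of subunit 4, one of 0.05 (SE 0.08, limma adjusted p = 0.732). Annotated genes overlap Cox4i1 (Gm20388 and Emc8) and Higd1a (Gm47112), so their reads are less certain. The ratio of member to paralogue within a library, taken from FPKM, removes any factor that a whole library shares. The Higd1b to Higd1a ratio was 1.96, 2.67, 2.34 and 2.45 in replicates 1 to 4 with NOS-null marrow, against 2.71, 2.93, 2.76 and 2.99 in WT marrow replicates 1 to 4. No NOS-null marrow library reached a WT marrow library in this ratio. Its log2 difference was −0.28 (two-sided exact permutation test p = 0.0286, the smallest that 4 against 4 libraries allow, and 0.0762 adjusted over the 4 ratios tested).

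Per length, Cox4i2 was below Cox4i1 in every library. The Cox4i2 to Cox4i1 ratio averaged 0.237 ± 0.0348 with NOS-null marrow, against 0.288 ± 0.0342 with WT marrow (log2 difference −0.29, exact permutation p = 0.114, adjusted p = 0.114). The Ndufa4l2 to Ndufa4 ratio averaged 0.112 ± 0.0161 with NOS-null marrow, against 0.139 ± 0.0256 with WT marrow (log2 difference −0.30, exact permutation p = 0.0571, adjusted p = 0.0762). Leaving out NOS-null marrow replicate 1 gave −0.19 for the Cox4i2 to Cox4i1 ratio and −0.20 for the Ndufa4l2 to Ndufa4 ratio, which was −0.18 without WT marrow replicate 4. Both sets of ratios overlapped between the groups, and none of the 4 ratios passed the adjusted threshold. The genes most like Higd1b outside the members, by the root mean square difference of their deviations from their own means over 8 libraries on the log2 scale, were Krtcap2 at 0.066 and Mustn1 at 0.068. For Cox4i2 they were Trnau1ap at 0.037 and Commd6 at 0.050. Among the members themselves, Ndufa4l2 and Cox4i2 ran closest by this measure (0.13), followed by Higd1b with Ndufa4l2 (0.15) and Higd1b with Cox4i2 (0.16).

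**Figure D2:**
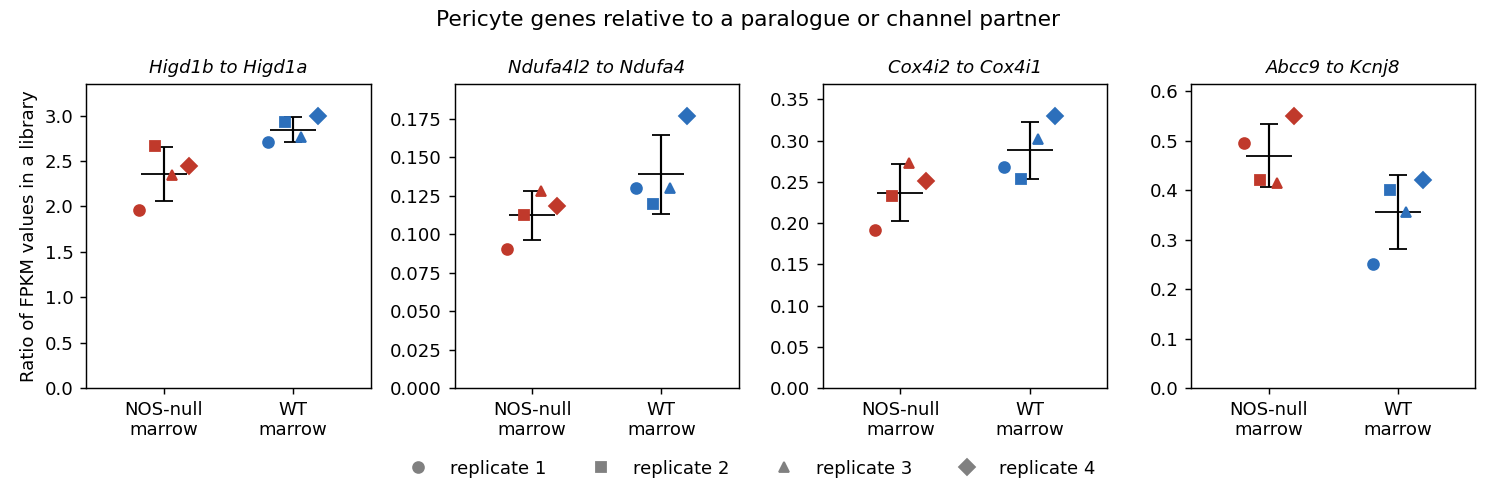
FPKM ratio (y axis, from 0) of a member to its paralogue or channel partner in each library, NOS-null marrow left and WT marrow right, with mean and SD of 4. The Higd1b to Higd1a ratio does not overlap between groups (1.96 to 2.67 with NOS-null marrow against 2.71 to 2.99 with WT marrow), and the other 3 do.

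Neither the surface proteoglycan gene nor the Notch receptor gene passed the test. Cspg4 (chromosome 9, 56865033 to 56899870, plus strand) encodes NG2, a chondroitin sulphate proteoglycan of the pericyte surface. With NOS-null marrow, replicates 1 to 4 had 295, 324, 386 and 347 scaled reads, against 345, 364, 368 and 565 with WT marrow. WT marrow replicate 4 was far above the rest, and the other 3 WT marrow libraries lay inside the NOS-null marrow range. The log2 change was −0.26 (SE 0.16, interval −0.60 to 0.09, limma adjusted p = 0.311) with all libraries and −0.09 (limma adjusted p = 0.606) without WT marrow replicate 4.

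Notch3 (chromosome 17, 32120820 to 32166852, minus strand) encodes the Notch receptor that mural cells use to mature and to hold their identity. Replicates 1 to 4 held 565, 596, 676 and 645 scaled reads with NOS-null marrow, against 415, 372, 477 and 593 with WT marrow. Values were higher in the NOS-null marrow lungs except that WT marrow replicate 4 lay above NOS-null marrow replicate 1 and just below replicate 2. Means were 620 ± 49.8 with NOS-null marrow, against 464 ± 95.9 with WT marrow (log2 change 0.44, SE 0.13, interval 0.14 to 0.74, limma adjusted p = 0.0833). Notch3 passed in 1 of the 8 fits that left out a library, the one without WT marrow replicate 4 (log2 change 0.56, adjusted p = 0.0474). The annotated gene Gm17276 overlaps it.

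Other Notch pathway genes were described from a list. Of 24 genes of ligands, receptors, modifying enzymes and targets, 23 were tested and 0 passed with limma, while 7 were higher and 2 lower at an unadjusted p under 0.05. Their median log2 change was 0.17, with 17 of 23 positive. Of all tested genes 26.6% had an unadjusted p under 0.05, and 50.1% had a positive log2 change. Without NOS-null marrow replicate 3, and likewise without replicate 4, 1 of the 23 was called higher. The median was 0.091 once NOS-null marrow replicate 1 was left out, and leaving out replicate 1 or 3 of WT marrow gave 0.11 or 0.099. Hey1, a target of Notch in vessels, averaged 506 ± 100 scaled reads with NOS-null marrow, against 329 ± 54.3 with WT marrow (log2 change 0.61, SE 0.15, limma adjusted p = 0.0519). Heyl, the target most tied to Notch3 in mural cells, had a log2 change of −0.08 (SE 0.12, limma adjusted p = 0.691).

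Rgs5 had the widest spread of the members. Rgs5 (chromosome 1, 169655501 to 169695813, plus strand) encodes a regulator that speeds up the switching off of G protein signals, such as those of vasoconstrictor receptors, and is a long-standing marker of pericytes. With NOS-null marrow, replicates 1 to 4 had 158, 367, 147 and 76.1 scaled reads, against 76.5, 74.0, 80.8 and 63.3 with WT marrow. The 3 highest libraries all had NOS-null marrow, and NOS-null marrow replicate 4 lay within the WT marrow range. NOS-null marrow libraries differed among themselves by 4.81-fold for Rgs5, against 1.28-fold among WT marrow libraries.

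The Rgs5 means were 187 ± 125 with NOS-null marrow, against 73.7 ± 7.44 with WT marrow (log2 change 1.11, SE 0.37, interval 0.29 to 1.93, limma adjusted p = 0.0995). Leaving out NOS-null marrow replicate 2 gave 0.71 (adjusted p = 0.169), and it was 1.46 without NOS-null marrow replicate 4 (adjusted p = 0.0253), the 1 fit in which it passed. Without NOS-null marrow replicates 1 and 2 together it was 0.52 (limma adjusted p = 0.303). No other annotated gene overlaps Rgs5. Its nearest genes by pattern were Klhl29 and Fam26f (root mean square difference 0.24 and 0.28, beside 0.80 for the deviations of Rgs5 from its own mean). Rgs4, a paralogue also used as a pericyte marker, averaged 489 scaled reads with NOS-null marrow, against 690 with WT marrow (log2 change −0.46, SE 0.28, limma adjusted p = 0.314).

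**Figure D3:**
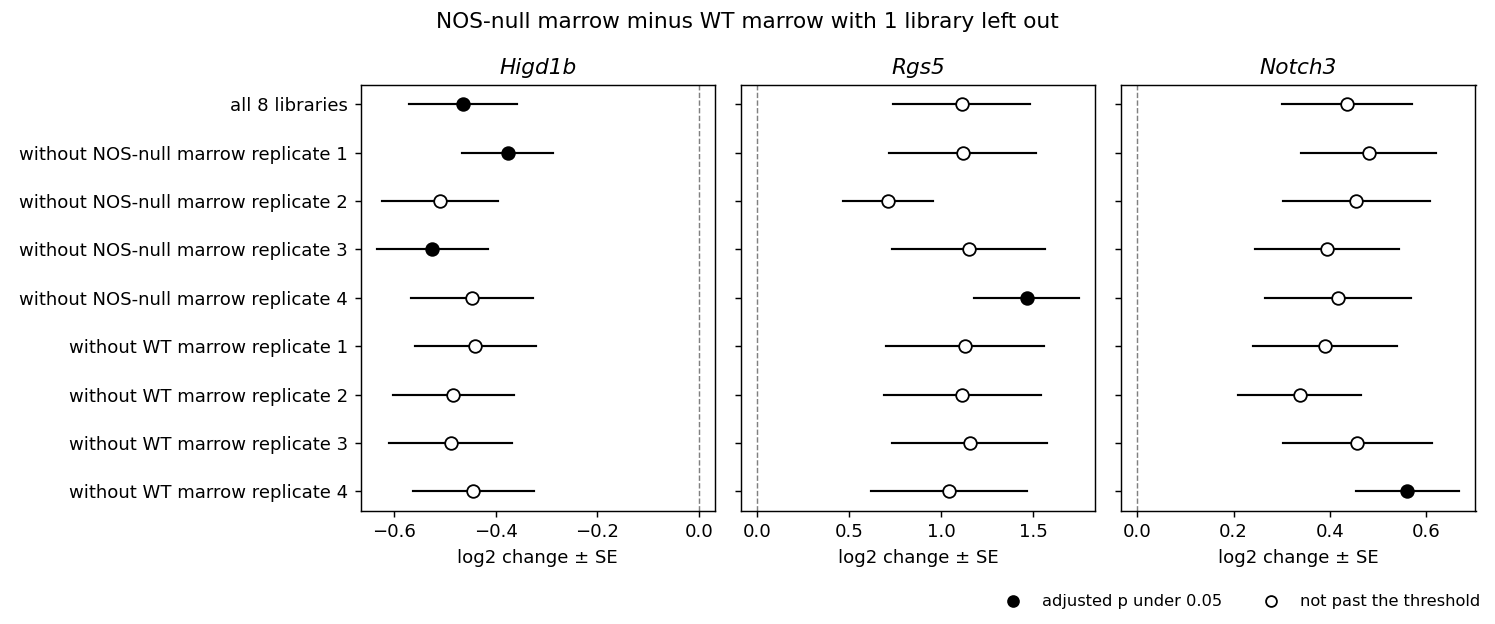
Log2 change, NOS-null marrow minus WT marrow, with its SE (x axis) for Higd1b, Rgs5 and Notch3 with all 8 libraries and with each library left out in turn (rows); filled points pass an adjusted p of 0.05. Higd1b stays between −0.53 and −0.38 and passes in 2 of the 8 reduced fits, Rgs5 and Notch3 in 1 each.

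The channel genes had small differences. Trpc6 (chromosome 9, 8544142 to 8680741, plus strand) encodes a cation channel opened by diacylglycerol, which mice need for the acute constriction of lung vessels in hypoxia. Replicates 1 to 4 held 382, 477, 494 and 460 scaled reads with NOS-null marrow, against 466, 472, 437 and 453 with WT marrow. The WT marrow values all lay inside the NOS-null marrow range, and the 95% interval of the log2 change, −0.22 to 0.19, bounds a difference at this depth (log2 change −0.02, SE 0.09, limma adjusted p = 0.922). The annotated gene Gm32014 overlaps Trpc6.

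Abcc9 (chromosome 6, 142587862 to 142702315, minus strand) encodes the sulphonylurea receptor SUR2, the regulatory subunit of the ATP-sensitive potassium channel of mural cells. With NOS-null marrow, replicates 1 to 4 had 78.9, 112, 125 and 138 scaled reads, against 89.4, 107, 115 and 91.7 with WT marrow. The lowest and the highest library both had NOS-null marrow (log2 change 0.15, SE 0.18, interval −0.25 to 0.55, limma adjusted p = 0.612). The annotated gene 5330439B14Rik overlaps it. Kcnj8, which encodes the pore subunit Kir6.1 and lies 16247 bases from Abcc9, stood at 44.1, 73.9, 83.8 and 69.6 scaled reads with NOS-null marrow, against 98.4, 74.0, 89.7 and 60.5 with WT marrow (log2 change −0.26, SE 0.22, limma adjusted p = 0.472).

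In every library Abcc9 was below Kcnj8 per length. The Abcc9 to Kcnj8 ratio of FPKM was 0.496, 0.421, 0.414 and 0.549 in replicates 1 to 4 with NOS-null marrow, against 0.252, 0.399, 0.356 and 0.419 in WT marrow replicates 1 to 4. WT marrow replicate 4 alone reached the NOS-null marrow range. The log2 difference was 0.41 (exact permutation p = 0.0571, adjusted p = 0.0762), and 0.26 without WT marrow replicate 1. Abcc9 is also a heart muscle gene. The summed level of 10 cardiomyocyte markers was 673, 420, 626 and 305 FPKM in replicates 1 to 4 with NOS-null marrow. In WT marrow replicates 1 to 4 it was 380, 265, 562 and 330 FPKM. Of the 10 markers 0 passed with limma (2 were higher at an unadjusted p under 0.05), and their part in the Abcc9 values was not tested. Leaving out NOS-null marrow replicate 4 gave 2 cardiomyocyte markers called higher, and the list's median log2 change was then 0.77, against 0.55 with all libraries.

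**Figure D4:**
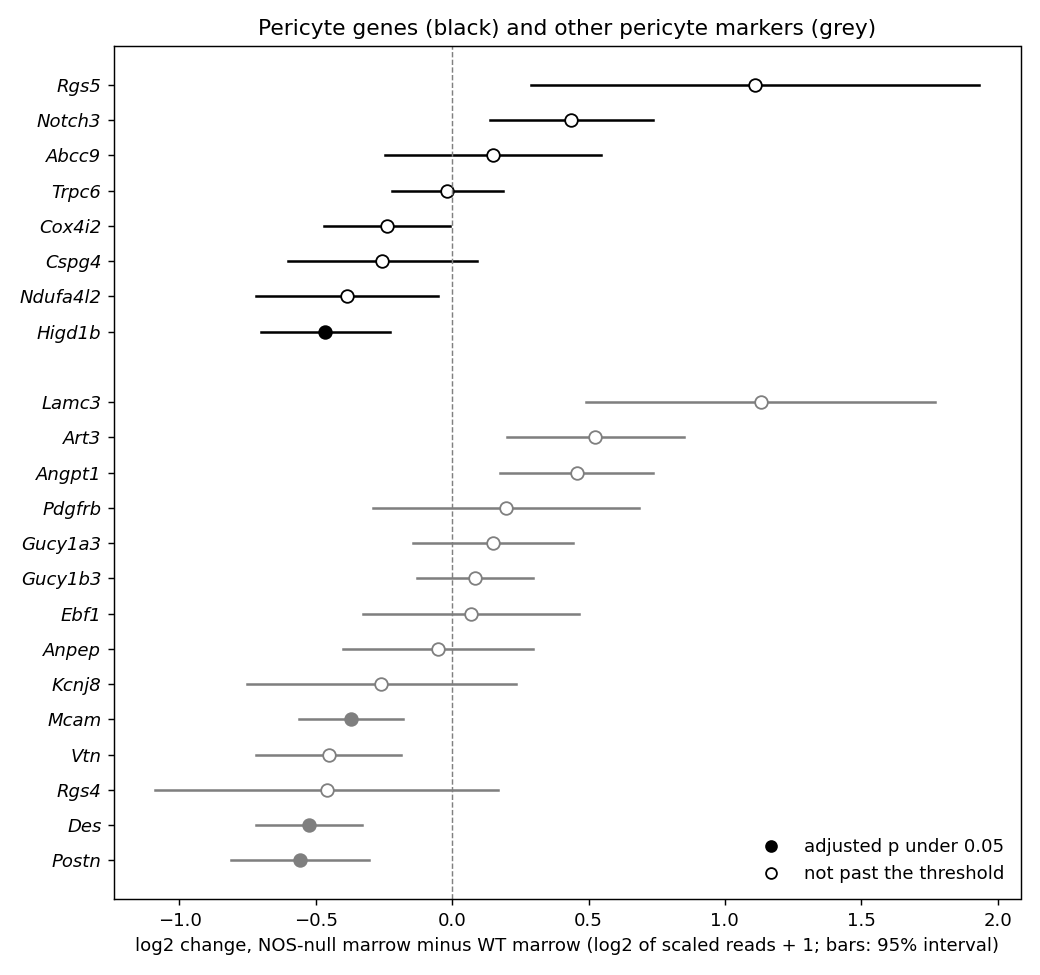
Log2 change with its 95% interval (x axis) for the 8 pericyte genes (black, above) and 14 other pericyte markers (grey, below), NOS-null marrow minus WT marrow; filled points pass an adjusted p of 0.05. Higd1b, Mcam, Des and Postn pass, all lower, and both sets hold genes on either side of 0.

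Other pericyte markers, described from a list of 14 genes that were all tested, likewise went both ways. Of the 14, 3 fell, 0 rose and 11 did not pass with limma, and 3 were higher and 4 lower at an unadjusted p under 0.05, with a median log2 change of 0.01. Over all tested genes 1.87% rose, 2.18% fell and 26.6% had an unadjusted p under 0.05. Mcam, the adhesion molecule CD146 of mural cells and endothelium, had 4401, 3619, 4336 and 4548 scaled reads across the NOS-null marrow replicates, against 5204, 5619, 5369 and 5610 across the WT marrow replicates. Every NOS-null marrow library lay below every WT marrow library, as in 9.29% of all tested genes (log2 change −0.37, SE 0.09, limma adjusted p = 0.0436). The other genes that fell were Des, the intermediate filament desmin (log2 change −0.52), and Postn, the matrix protein periostin (−0.56). Mcam passed in 2 of the 8 fits that left out a library, Des in 5 and Postn in 3. Pdgfrb, the receptor by which pericytes are recruited, averaged 1109 scaled reads with NOS-null marrow, against 987 with WT marrow (log2 change 0.20, SE 0.22, limma adjusted p = 0.587). Lamc3, a laminin chain gene, had a log2 change of 1.13 (SE 0.29, limma adjusted p = 0.0538) and did not pass. None of the 14 passed without NOS-null marrow replicate 2, WT marrow replicate 1 or WT marrow replicate 2, and 1 did without WT marrow replicate 3 or 4. Without NOS-null marrow replicate 4 the counts were 3 higher and 3 lower, and without replicate 3 they were 1 higher and 3 lower.

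Genes that recruit pericytes and stabilise vessels, 18 in all and all tested, held 1 that fell, Tgfb2, a transforming growth factor beta ligand. It averaged 440 ± 74.4 scaled reads with NOS-null marrow, against 638 ± 57.5 with WT marrow (log2 change −0.55, SE 0.12, limma adjusted p = 0.0407). Tgfb2 no longer passed once NOS-null marrow replicate 1 or 2 or any 1 WT marrow library was left out (highest adjusted p = 0.120). The angiopoietin Angpt1, made by mural cells for the endothelial receptor Tek, had a log2 change of 0.46 (limma adjusted p = 0.0645), and the ligand Pdgfb one of −0.43 (limma adjusted p = 0.0612). At an unadjusted p under 0.05, 4 genes of this list were higher and 7 lower, beside 26.6% of all tested genes in either direction. Called lower were 2.18% of all tested genes. Of this list 1 gene was called higher and 2 lower without NOS-null marrow replicate 4, and 2 were called lower without replicate 1. Without WT marrow replicate 4, 1 was called higher and 0 lower.

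Since Ndufa4l2 is induced by hypoxia, hypoxia-inducible genes and their regulators were set beside the members. Of 17 tested, 0 passed with limma, with 2 higher and 3 lower at an unadjusted p under 0.05 and a median log2 change of 0.01. Under that unadjusted p lay 26.6% of all tested genes. Without NOS-null marrow replicate 4 there were 2 called higher and 1 lower, and without replicate 3 there was 1 each way. The groups did not overlap for 4 of the 17, where 17.1% of all tested genes did not overlap in either direction. Ldha, P4ha1 and Hif1a lay lower with NOS-null marrow in this way, and Hif3a higher. Vegfa, the gene of the main endothelial growth factor, had a log2 change of −0.22 (limma adjusted p = 0.216). Epas1, which encodes hypoxia-inducible factor 2 alpha, had one of 0.74 (limma adjusted p = 0.0835). Of 18 tested paralogues and partners of the members, 0 passed with limma, with 3 higher and 1 lower at an unadjusted p under 0.05, and 1 was called higher without NOS-null marrow replicate 3.

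Markers of neighbouring cell types moved with the group and with single libraries. Over all tested genes 1.87% rose, 2.18% fell and 26.6% had an unadjusted p under 0.05. Of 14 vascular smooth muscle genes 5 fell and 0 rose, with summed levels of 1556 to 1960 FPKM with NOS-null marrow and 2757 to 3023 FPKM with WT marrow. Of the 14, 9 did not pass, and 3 log2 changes were positive and 11 negative, with a median of −0.43. At an unadjusted p under 0.05, 1 was higher and 8 lower. The mean deviation of the 14 genes from their own log2 means ran from −0.22 to −0.024 in libraries with NOS-null marrow. With WT marrow it ran from 0.013 to 0.27. Acta2, smooth muscle actin, averaged 6838 ± 941 scaled reads with NOS-null marrow, against 13816 ± 1056 with WT marrow. Of 7 tested erythroid genes 5 rose (summed level 5866 to 7555 FPKM with NOS-null marrow and 2832 to 3602 FPKM with WT marrow). Of 12 fibroblast genes 1 rose, Inmt, while 3 were higher and 3 lower at an unadjusted p under 0.05. Their log2 changes were positive in 5 and negative in 7. Of 12 endothelial genes 0 passed with limma (2 were lower at an unadjusted p under 0.05). With 1 library left out the smooth muscle count lower was 3 to 6 and the erythroid count higher 2 to 5, and Inmt passed in 1 of 8 such fits. Without NOS-null marrow replicate 1, 2 endothelial genes and 1 fibroblast gene were called lower. Without NOS-null marrow replicate 3, 1 fibroblast gene was called lower, and 2 were called higher without replicate 4. The part of these cells in the fall of Higd1b was not tested.

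NOS-null marrow replicate 1 held the lowest value of all 8 libraries for 6 of the 8 members, all but Rgs5 and Notch3. The share of all tested genes that were lowest in this library was not counted, so 6 of 8 has no background beside it. It also held the highest summed level of 8 leukocyte markers, 2322 FPKM, against 654 to 1034 FPKM in the other 3 NOS-null marrow libraries and 644 to 1009 FPKM with WT marrow. Of the 8 leukocyte markers 0 passed with limma, and 0 had an unadjusted p under 0.05. Without NOS-null marrow replicate 1 the log2 change of Higd1b was −0.38 (limma adjusted p = 0.0488), that of Ndufa4l2 −0.28 and that of Cox4i2 −0.19. The part of leukocyte RNA in these values was not tested.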

How the data were processed

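RNA from 8 whole lungs was sequenced, and per the labels' protocols mRNA was isolated on beads and read as 75 bp single ends. Per the submitters' processing notes the tools were CASAVA 1.8.2, TopHat2 2.0.13, Bowtie2 2.2.3, SAMtools 0.1.19 and Cufflinks 2.2.1, with mm10. Of the annotation, the settings and the strand, nothing is given in the sources used here. The main table is a scaled signal, deposited by the authors, whose values look like reads divided by 1 factor per library. In each library 98.5 to 98.8% of values above 0 were whole multiples of one step (tolerance 0.05), but 9 to 16 were smaller than that step, so whole reads were not taken as recovered and no count model was used. The FPKM values deposited by the authors served for levels and ratios.

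Values were increased by 1 and log2-transformed. The 14008 genes that reached 10 in 4 or more libraries entered limma 3.58.1 (R 4.3.3, trend on, 2 groups, no other term), NOS-null marrow minus WT marrow, Benjamini-Hochberg adjusted over 14008 genes. Ratios were tested by exact permutation of the 70 splits, two-sided. No batch is given in the labels used here. The fit was tested on simulated data with known changes. It recovered 30 of 67 changes of 1.5-fold, 50 of 67 of 2-fold and 60 of 66 of 4-fold, and 8 of 148 calls were false. A gene that did not pass is thus not shown to be unchanged. Simulated libraries varied independently, without the spread shared by many genes that set NOS-null marrow replicates 1 and 2 apart.

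All 8 members are named. Of the listed genes those called, paralogues or partners, and the highest of a list were eligible. Others were chosen after their values were seen (Rgs4, Pdgfrb, Vegfa, Lamc3, Hey1, Heyl, Angpt1, Pdgfb, P4ha1, Hif1a, Hif3a). The nearest genes are the 2 with the smallest root mean square difference, clone names left out. Members and lists were chosen with earlier results of these data known. Other alternatives were the scaling, pseudocount, filter, FPKM table, trend, replicate block and libraries left out. In 4 mesothelial genes tested, 0 passed with limma (1 was higher at an unadjusted p under 0.05, and 1 was called higher without WT marrow replicate 1).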

Additional observations from a re-analysis of the deposited data

Results flagged for a closer look

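Cspg4 in WT marrow lungs had 1 library far from the others. WT marrow replicate 4 held 565 scaled reads, and the next library of the group held 368, a gap of 0.897 of the group's whole range. Of 24 groups looked at in this way (8 genes and 4 ratios in 2 marrow groups) it was the 1 that stood out, and chance gives about 1 in 20. The log2 change of Cspg4 without this library is −0.09.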

How the results depend on the processing

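The count of all genes called, 567, was 185 without limma's trend, 178 with NOS-null marrow replicates 1 and 2 both left out, and 65 to 786 in the fits that left out 1 library. The number of pericyte genes called, 1, was 0 without the trend and with those 2 replicates both left out, and 0 to 1 with 1 library left out, where the gene called was Higd1b in 2 fits, Rgs5 in 1 and Notch3 in 1. Higd1b passed in 8 of 17 alternatives (adjusted p from 0.0344 to 0.131) and was lower in all 17. That sign says little, since leaving out libraries cannot turn it where the groups do not overlap. Both rescalings used factors of only 0.996 to 1.006. In the labels same-numbered replicates are linked by the number alone. Their deviations from the group means correlated at −0.0027 to 0.169, against −0.180 to 0.112 for unlike numbers, and 4 of 8 libraries matched their own number best. Genes above 0 numbered 17583 and 17621 in replicate 4 of the 2 groups, against 16778 to 17058 in the other libraries. Whether a shared number marks shared handling was not tested. With the replicate block 135 genes and 0 pericyte genes were called. The log2 change of Trpc6 ran from −0.061 to 0.062 with 1 library left out: it turned positive without NOS-null marrow replicate 1 (0.062), and likewise (0.062) with replicates 1 and 2 both left out. The other 7 members kept their sign in all 17 alternatives, and the 4 ratios in all 12. For the members the log2 change is the same by construction without the trend, with the replicate block and without the filter. The cause of these differences was not tested.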
